A study of Drosophila melanogaster with 2 samples.

Results

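Female and male Drosophila melanogaster embryos were compared in clusters of embryos that precede the major activation of the zygotic genome. The embryos are the 23 of clusters 1 to 3 of a pseudo-time series of 84 embryos for which the study lists a sex, 11 females and 12 males, out of 61 sexed embryos in all. They were chosen by their cluster and their sex alone, and no measured difference between the sexes entered the choice. All embryos came from the wild-type inbred line DGRP-737, carried no transgene or mutation, and were collected untreated from cages A and B. The study takes the 84 embryos as up to about 3 h old. It collected them in consecutive 1-h intervals, with further aging after later ones. By their names the embryos of cluster 1 came from intervals 1 and 2 and those of clusters 2 and 3 from interval 2. Polyadenylated RNA of each whole embryo was barcoded with a modified CEL-Seq2 protocol. The sex was determined by qPCR of X and Y chromosomal sequence on DNA of the same embryo. An embryo was called female when X but not Y sequence amplified. The study reports that low DNA content kept this PCR from being consistent in the youngest embryos. The sexed embryos of cluster 1 lie next to that limit in pseudo-time, so their sex calls may be less certain. Pseudo-time orders the embryos by their transcriptomes, so a position is itself computed from expression and is not a clock time. Each embryo is a separate animal and was taken as 1 replicate. Replicate numbers below only name embryos of a sex and cluster in pseudo-time order.

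Sex in Drosophila is set by the dose of the X chromosome. The X-linked signal elements sc, sisA, run and upd1 are transcribed in early nuclear cycles, and their higher dose in embryos with a pair of X chromosomes switches on the establishment promoter of Sxl, the master regulator of female development. Repressors encoded on autosomes, such as dpn, and maternal cofactors, such as gro, da and emc, set the threshold against which this dose is read. Males later raise transcription of their single X through the MSL complex and the roX RNAs, while Sxl blocks msl-2 in females. Most RNA at these stages was loaded by the mother before the sex of the embryo was set.

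Cluster 1 held 2 females and 4 males, cluster 2 held 5 females and 6 males, and cluster 3 held 4 females and 2 males. In cluster 1 both females came from cage B and all 4 males from cage A, so sex and cage cannot be told apart there. In cluster 3 both males came from cage A. The males of clusters 2 and 3 lay later on average, with median positions of 36.5 against 33 for the females in cluster 2 and 44.5 against 42.5 in cluster 3. Totals over the listed genes ranged from 274425 to 1696751 unique molecules (UMIs) per embryo, and 6304 to 7222 genes were detected. The shallowest embryos were females 1 and 2 of cluster 3, where 1 UMI of a gene is the step between 2 values. The summed level of 6 maternal markers ranged from 319 to 1050.0 in females and from 346 to 1091 in males, and that of the later genes stumps, tin, ind and htl stayed at or below 1.18 in every embryo. The table of 7629 genes held 1335 X-linked genes and 0 Y-linked genes, so the sexes could not be checked from Y-linked transcripts. Values called normalized counts are UMI counts scaled to the total of the shallowest embryo. They are thus relative to the RNA of the same embryo. Fewer expressing nuclei cannot be told apart from less RNA per nucleus.

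A pair of female embryos stood apart before any comparison of the sexes. Female 2 of cluster 1 had the highest value of its cluster for 215 of 423 tested zygotic genes (50.8%, against 16.7% if the 6 embryos shared the highest values evenly). Female 4 of cluster 2 had the highest value for 106 of 423 (25.1%, against 9.09%). The other 21 embryos had between 4.02% and 21.5%. Zygotic here means a mean normalized count of at most 1 over the first 10 embryos in pseudo-time, none of which is among the 23, and all other genes are called maternal. Both embryos detected the most genes, 7127 and 7222. Because both are female, results were also computed without them, a choice made after seeing the data. Both were picked for high zygotic values, so leaving them out tends to lower female minus male for zygotic genes, X-linked and autosomal alike.

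**Figure D1:**
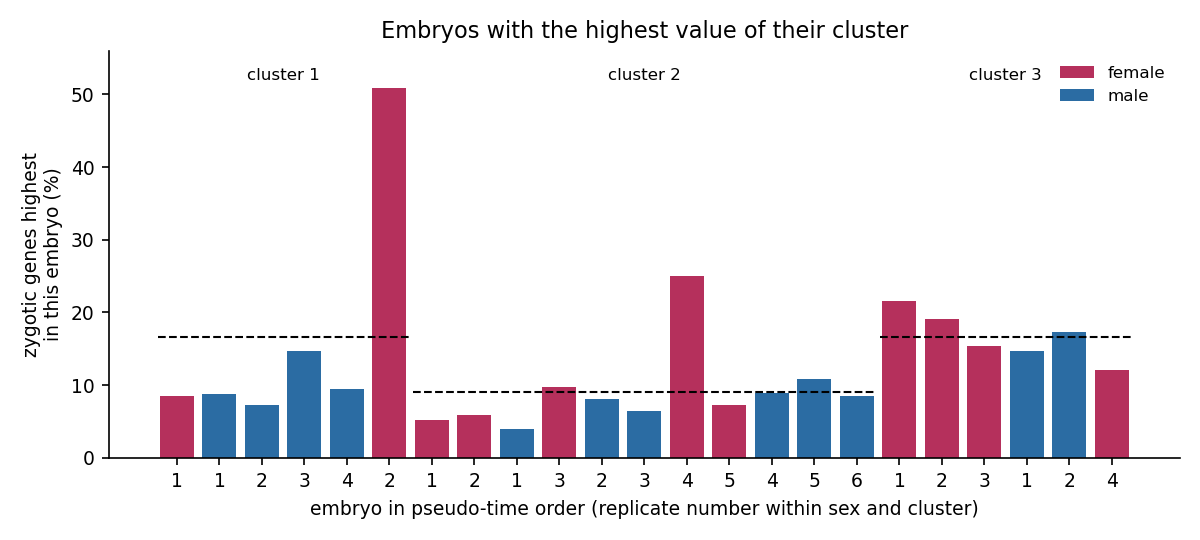
Bars give, for each of the 23 embryos in pseudo-time order, the percentage of the 423 tested zygotic genes whose highest value in the cluster fell in that embryo, and dashed lines give the percentage if the embryos of a cluster shared them evenly. Female 2 of cluster 1 reached 50.8% and female 4 of cluster 2 reached 25.1%.

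No single gene was called different between the sexes in clusters 1 to 3. With cluster as a factor, edgeR's quasi-likelihood test called 0 of 6752 tested genes in either direction (0% called) at an adjusted p below 0.01, and also at 0.05. The smallest adjusted p was 0.0829, for sisA. At an unadjusted p below 0.05 there were 318 genes (4.71%), 230 towards females (3.41%) and 88 towards males (1.3%). DESeq2 called 0 genes at 0.01, with 226 and 69 genes at an unadjusted p below 0.05, and limma on log2 values called 0, with 135 and 124. Of the 230 genes with an unadjusted p towards females, 66 were X-linked (28.7%), and of the 88 towards males 12 were X-linked (13.6%), while 1214 of all 6752 tested genes were X-linked. In embryos of cage A alone and of cage B alone edgeR also called 0 genes, with 206 and 147 and with 177 and 67 genes at an unadjusted p below 0.05. Without the pair of embryos that stood apart 0 genes were called, with 155 and 64 genes at an unadjusted p below 0.05, and 87 of the 230 and 29 of the 88 still had such a p. The median log2 difference over all tested genes was 0.01 and the median standard error 0.12. Genes named below are described by their values, and none passed the test unless stated.

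The X-linked gene nearest to the threshold was sisA, which encodes a bZIP protein that activates Sxl (chromosome X, 11321579 to 11322357, minus strand). In cluster 1 its normalized counts were 1.00 and 0.712 in the females and 1.19, 0.711, 0.294 and 0.189 in the males. In cluster 2 the females had 2.41, 4.24, 3.49, 6.14 and 4.64, and the males ranged from 1.43 over a median of 2.26 to 2.98. In cluster 3 the females had 6.00, 14.8, 12.2 and 8.79 and the males 4.67 and 3.66. The sexes overlapped in clusters 1 and 2. In cluster 3 every female lay above both males, as for 4.24% of all 6752 tested genes. The sisA values rest on few molecules, from 1 to 4 UMIs per embryo in cluster 1 and up to 49 in cluster 3. The estimated difference of sisA was 1.05 on the log2 scale (SE 0.21, 95% interval 0.63 to 1.46, edgeR adjusted p = 0.0829), and its point estimate stayed between 0.66 and 1.33 in 16 alternative fits. DESeq2 gave an adjusted p of 0.0305. Without the pair of embryos that stood apart the difference of sisA was 0.98.

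The other signal elements gave smaller estimates. The bHLH gene sc, which is also a proneural gene, was the most abundant of them. It stood at 2.00 and 1.78 in the cluster 1 females and at 1.48, 0.948, 1.47 and 0.189 in the males. Its cluster 2 females had 9.09, 14.5, 23.2, 23.8 and 27.3, and the males 6.45 to 25.0 with a median of 15.9. Both cluster 3 males, at 78.9 and 66.7, lay among or below the females at 70, 115, 92.8 and 110. The sexes thus overlapped for sc in clusters 2 and 3. Both females of cluster 1 lay above its males on 1 to 8 UMIs, where sex and cage cannot be told apart. The share of all tested genes with such a separation in cluster 1 was not computed, so it is not read as a result. The difference of sc over the clusters was 0.40 (SE 0.20, unadjusted p = 0.0522). For run, a runt-domain transcription factor that keeps Sxl active, females of cluster 3 had 4.00, 11.6, 13 and 11.7 and males 8.64 and 11.4, and the difference over the clusters was 0.43 (unadjusted p = 0.10), and 0.19 without the pair of embryos that stood apart. For upd1, the ligand of the JAK/STAT pathway, the females had 6.00, 5.16, 14.7 and 9.61 in cluster 3 and the males 9.81 and 7.69, with a difference of 0.14 (unadjusted p = 0.656), and 0.05 without that pair. Both genes overlapped between the sexes in all 3 clusters. All 4 signal elements had point estimates above 0, with a median of 0.42, beside 53.1% of all tested genes above 0 and a median of 0.01. Without the pair of embryos the median of the 4 was 0.28, and 1 of the 4, sisA, had an unadjusted p below 0.05 in both fits.

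The neighbours of sc in the achaete-scute complex on the X chromosome gave values of the same kind. The proneural gene ac was at 0 in both females of cluster 1 and at no more than 0.296 in the males. In cluster 3 its females had 17, 22.6, 16.5 and 25.8 and its males 12.6 and 12.1, which do not overlap. Of all tested genes 4.24% had every female above both males there. The ranges of ac in cluster 2 overlapped. For l(1)sc, a further proneural bHLH gene, the cluster 3 females had 12.0, 30.3, 19.5 and 18.6 and the males 13.1 and 13.9. Overlap of l(1)sc was present in every cluster. The differences over the clusters were 0.55 for ac (SE 0.27) and 0.63 for l(1)sc (SE 0.32), with unadjusted p of 0.0522 and 0.0628. The fourth member, ase, did not pass the minimum of 3 UMIs in 5 embryos and was not tested.

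**Figure D2:**
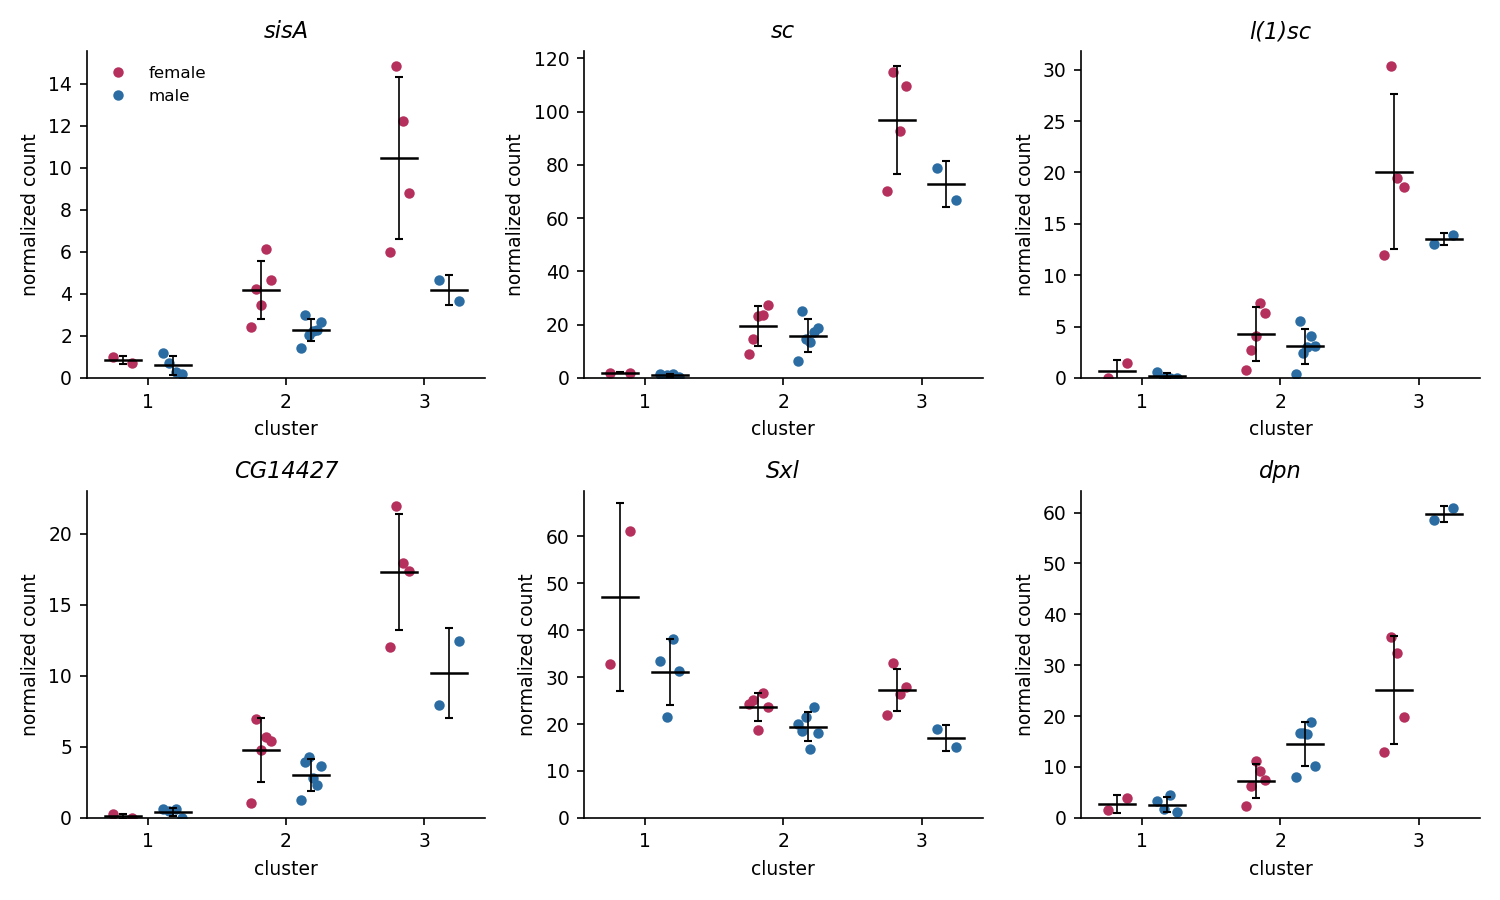
Points give the normalized count of each embryo for sisA, sc, l(1)sc, CG14427, Sxl and dpn by cluster, with the mean (line) and SD (bar) of 2, 5 and 4 females and 4, 6 and 2 males in clusters 1, 2 and 3. In cluster 3 the females lie above the males for sisA and Sxl and below them for dpn. Of all 6752 tested genes 4.24% and 5.41% show these separations there.

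Sxl (chromosome X, 7074550 to 7098053, minus strand), which encodes an RNA-binding protein that controls splicing and translation, was present as maternal RNA, with a mean normalized count of 29.8 in the first 10 embryos. Its cluster 1 values were 32.8 and 61.2 in females, the second being the embryo that stood apart, and 33.5, 21.6, 38.2 and 31.2 in males. Its cluster 2 values were 24.3, 25.2, 18.7, 26.7 and 23.6 in females and 14.7 to 23.7, median 19.3, in males. Its cluster 3 values were 22, 32.9, 26.4 and 27.8 in females and 18.9 and 15.0 in males. The sexes overlapped in clusters 1 and 2 and not in cluster 3, where 4.24% of all tested genes had every female above both males. The difference of Sxl was 0.47 (SE 0.11, edgeR adjusted p = 0.476) and was 0.33 without the pair of embryos. Reads from maternal Sxl and from the embryo's own transcripts were not separated in these counts.

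The largest estimate in the other direction among the sex-determination genes was that of dpn (chromosome 2R, 8228971 to 8232330, minus strand), a bHLH repressor that counters the activation of Sxl. In cluster 1 its values were 1.50 and 3.92 in females and 3.26, 1.66, 4.41 and 1.14 in males. In cluster 2 they were 2.41, 6.23, 11.1, 9.22 and 7.43 in females and 8.07 to 18.8, median 16.5, in males. In cluster 3 they were 13, 35.5, 32.4 and 19.8 in females and 58.6 and 60.8 in males. Females and males overlapped in clusters 1 and 2. In cluster 3 both males lay above all 4 females, as for 5.41% of all tested genes. The difference of dpn was -0.98 (SE 0.23, edgeR adjusted p = 0.476). Levels of dpn rose along these clusters and the males of clusters 2 and 3 lay later in pseudo-time. With position as a covariate the difference was -0.89, and without the pair of embryos it was -1.12.

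The remaining sex-determination genes stayed close to 0. Of the list of 13 genes around Sxl, 12 were tested, and 4 of the 12 had estimates above 0, with a median of -0.04. Only Sxl and dpn had an unadjusted p below 0.05. The corepressor gro gave -0.04, the bHLH partner da 0.10 and the inhibitory HLH protein emc -0.01. The splicing regulators tra and tra2 gave -0.11 and -0.03, and the Sxl cofactors snf, fl(2)d and vir gave -0.08, -0.09 and -0.19. The maternal zinc finger gene her gave 0.13 and Spps gave 0.10. Standard errors of these 10 genes lay between 0.07 and 0.16. Each had a mean above 1 in the first 10 embryos and so counts as maternal here. Reads from their maternal RNA and from the embryo's own transcripts were not separated.

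Dosage compensation genes were likewise not called. Of 8 listed genes 7 were tested, 2 of them with estimates above 0, and the median was -0.02. The transcript of msl-2, the limiting male-specific subunit of the MSL complex, was scarce, with values between 0.242 and 2.33. In cluster 3 the females had 1.00, 0.645, 0.998 and 0.613 and the males 2.33 and 1.83, from 1 to 10 UMIs. The groups did not overlap there, and 5.41% of all tested genes likewise had both males above every female. In clusters 1 and 2 the sexes overlapped for msl-2, and the difference over the clusters was -0.43 (SE 0.34, unadjusted p = 0.214). The helicase gene mle gave -0.32 (unadjusted p = 0.0536) and the acetyltransferase gene mof 0.28, whereas Clamp gave -0.12, msl-3 -0.02 and msl-1 -0.0026. The non-coding RNA lncRNA:roX1, encoded on the X, had the 1 unadjusted p below 0.05 in this list. In cluster 1 lncRNA:roX1 was at 3.76 and 27 in females and at 3.56, 3.08, 7.64 and 5.68 in males. In cluster 2 it was at 4.81, 5.99, 6.35, 19.2 and 10.6 in females and at 3.41 to 7.32, median 6.63, in males. The values 27 and 19.2 belong to the pair of embryos that stood apart. In cluster 3 the females had 40, 36.1, 34.9 and 18 and the males 12.4 and 29.3. The sexes overlapped in each cluster, and the difference of lncRNA:roX1 was 0.89 (SE 0.32, unadjusted p = 0.0126) with all embryos and 0.34 without that pair.

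Among genes listed as rising from cluster 1 to 2, estimates for X-linked and autosomal genes lay apart. The study lists 66 genes that rose from cluster 1 to cluster 2, chosen on these libraries for change over time and not for sex, and 64 were tested here. Of the 12 X-linked ones 11 had estimates above 0, with a median of 0.59 on the log2 scale, and of the 52 autosomal ones 5 did, with a median of -0.23. Over all 6752 genes 53.1% were above 0 and the median was 0.01. Of the 12 X-linked genes 4 had an unadjusted p below 0.05 towards females (33.3%, beside 3.41% of all genes), namely sisA, fd19B, CG14427 and nullo, and 0 towards males. Of the 52 autosomal genes 0 had one towards females and 6 had one towards males (11.5%, beside 1.3% of all genes). Without the pair of embryos that stood apart, 11 of 12 X-linked and 6 of 52 autosomal genes were above 0, with medians of 0.47 and -0.31. With position in pseudo-time as a covariate, 12 of 12 and 21 of 52 were above 0, with medians of 0.78 and -0.05, so the distance between the groups of genes stayed while the autosomal median moved towards 0. None of these 64 genes passed the test singly. The next lists showed less of this. Of the genes listed as rising from cluster 2 to 3, 3 of 3 tested X-linked and 15 of 31 autosomal ones were above 0, with medians of 0.83 and -0.01. With that pair left out these were 2 of 3 and 2 of 27, with medians of 0.06 and -0.39. Of those rising from cluster 3 to 4, 10 of 12 X-linked and 43 of 58 autosomal genes were above 0, with medians of 0.29 and 0.22. Without the pair these were 5 of 12 and 20 of 52, with medians of -0.03 and -0.04, close to each other.

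**Figure D3:**
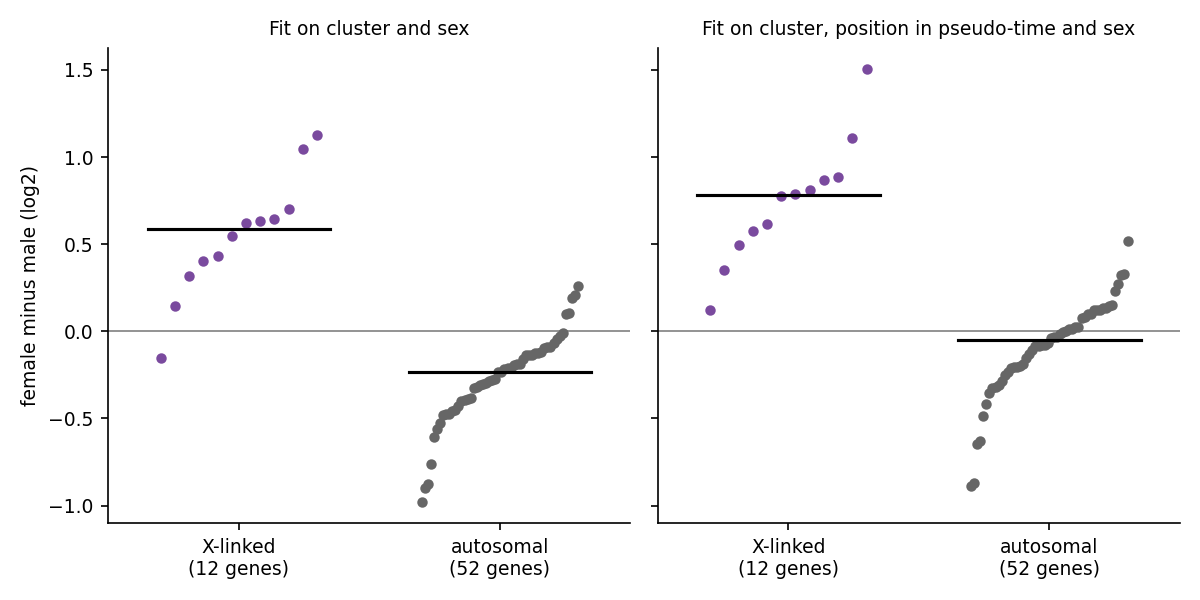
Each point is the female minus male log2 difference of a gene listed as rising from cluster 1 to 2, sorted by value within the 12 X-linked and the 52 autosomal genes, and lines give medians. The medians are 0.59 and -0.23 with cluster and sex in the fit, and 0.78 and -0.05 when position in pseudo-time is added.

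The X-linked members of that list include segmentation and cellularization genes beside the signal elements. The forkhead gene fd19B was scarce, at 3.00, 5.16, 6.98 and 6.54 in the females of cluster 3 and 2.80 and 4.40 in its males, and gave 1.12 (SE 0.38). Its groups overlapped in all clusters. CG14427 had 12.0, 21.9, 18 and 17.4 in those females and 7.94 and 12.5 in those males, and gave 0.70 (SE 0.23, unadjusted p = 0.00484), which was 0.71 without the pair of embryos. The actin-regulating cellularization gene nullo gave 0.65, with 1.00, 11.0, 13.2 and 13.7 in those females and 7.47 and 6.60 in those males, the lowest value resting on 1 UMI. The BMP modulator tsg gave 0.62 and CG13000 gave 0.31, which were 0.48 and 0.08 without the pair. With single embryos left out CG13000 ranged from 0.07, without female 4 of cluster 2, to 0.57, without male 2 of cluster 3. The gap gene gt was the only X-linked member with an estimate below 0, at -0.15, and its estimate was -0.31 without the pair and 0.12 with position as a covariate. On the autosomes amos, a proneural bHLH gene on 2L, gave -0.48 (SE 0.18, unadjusted p = 0.0111). Its cluster 3 females had 11.0, 18.1, 19.7 and 20.6 and its males 25.4 and 25.6, which do not overlap. Of all tested genes 5.41% had both males above every female there.

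The same split appeared in the 20 genes that the study lists for the minor wave of transcription, all of which were tested. The 6 X-linked ones (sc, sisA, l(1)sc, nullo, tsg and CG13000) all had estimates above 0, with a median of 0.63, and 2 of them had an unadjusted p below 0.05. Among the 14 autosomal ones 1 had an estimate above 0, the median was -0.22, and 1 had an unadjusted p below 0.05 towards males. With position in pseudo-time as a covariate 6 of 6 and 7 of 14 were above 0, with medians of 0.83 and 0.00. By symbol, all of these genes except bard were also found in the list of genes rising from cluster 1 to 2. Of the 66 symbols of that list 64 were found here, so a different symbol for bard cannot be told apart from its absence. The split in this list is thus not separate evidence.

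Over all 69 tested zygotic X-linked genes, 48 had estimates above 0 with a median of 0.33, and 12 had an unadjusted p below 0.05 towards females (17.4%) and 1 towards males. Among 350 zygotic autosomal genes these were 191, 0.09, 27 and 9. The pair of embryos was picked for high zygotic values, so leaving it out favours lower figures in both groups of genes. Without the pair 31 of 59 zygotic X-linked genes were above 0 (median 0.04) and 116 of 302 autosomal ones (median -0.14). Maternal genes had medians of 0.02 on the X (646 of 1145 above 0) and 0.01 on the autosomes (2675 of 5163). Of the maternal X-linked genes 54 had an unadjusted p below 0.05 towards females (4.72%) and 11 towards males (0.96%). For maternal autosomal genes these were 136 (2.63%) and 67 (1.30%). Of the 66 X-linked genes with such a p towards females 54 were thus maternal, beside 1145 of all 1214 tested X-linked genes.

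To compare the X chromosome as a whole, normalized counts of all zygotic genes were summed in each embryo, including those below the minimum for testing. The X-linked sum over 190 genes was 1.32 times higher in females by its estimate (0.40 on the log2 scale, SE 0.19), with p = 0.0347 in an exact two-sided permutation test of sex within clusters and p = 0.104 after adjustment over 3 sums, which does not pass. Without the pair of embryos the estimate was 0.11. The autosomal sum over 1098 genes had a ratio of 1.03 (0.05 on the log2 scale, exact permutation p = 0.822), which turned to -0.25 on the log2 scale without the pair, and the maternal X-linked sum over 1145 genes a ratio of 1.00 (exact permutation p = 0.514). In cluster 1 the X-linked sums were 46.3 and 193 in the females and 51.6, 51.9, 75.8 and 50.7 in the males, so the female mean rests on the embryo that stood apart. The same embryo had the highest autosomal sum of the cluster, 858 beside 265 in the other female and 271 to 386 in the males.

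The X-linked sum divided by the autosomal sum of the same embryo separated the sexes more clearly than either sum. This ratio was chosen after seeing the data, and the p-values given for it do not account for that choice. In cluster 1 the ratio was 0.175 and 0.224 in the females and 0.183, 0.191, 0.196 and 0.187 in the males. In cluster 2 it was 0.243, 0.270, 0.204, 0.223 and 0.226 in the females and 0.158 to 0.196, median 0.179, in the males. In cluster 3 it was 0.233, 0.299, 0.262 and 0.293 in the females and 0.188 and 0.171 in the males. Females and males overlapped in cluster 1, while in clusters 2 and 3 every one of the 9 females lay above every one of the 8 males, and so in each cage too. The ratio was 1.28 times higher in females over the 3 clusters (0.35 on the log2 scale, SE 0.07, exact permutation p = 0.000115, or 0.000462 adjusted over 4 measures). It was 1.05 times higher in cluster 1 (exact permutation p = 0.667), 1.30 times in cluster 2 (p = 0.00216, the smallest that this exact test can give) and 1.51 times in cluster 3 (p = 0.0667, also the smallest possible, so the design cannot reach 0.05 there). Whether these ratios differ among the clusters was not tested. Without the pair of embryos the difference was 0.36 on the log2 scale (exact permutation p = 0.000762), without cluster 1 it was 0.45, and with cage as a covariate it was 0.38. The ratio does not tell a higher X-linked sum from a lower autosomal one. Without the pair its difference was made up of 0.11 in the X-linked sum and -0.25 in the autosomal sum. The latter had an exact permutation p of 0.0476, or 0.143 adjusted over 3 sums. Leaving out females picked for high zygotic values favours a lower autosomal sum, so this p does not stand as a test of it. In cluster 3 the difference of the ratio was made up of 0.29 in the X-linked sum and -0.30 in the autosomal sum. Both males, at 1219 and 1377, had higher autosomal sums than all 4 females, at 915 to 1177. The males of clusters 2 and 3 lay later in pseudo-time. With position as a covariate the difference of the ratio was 0.34, from 0.60 in the X-linked sum and 0.26 in the autosomal sum. The sign of the autosomal part thus depended on the fit and on the embryos used.

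**Figure D4:**
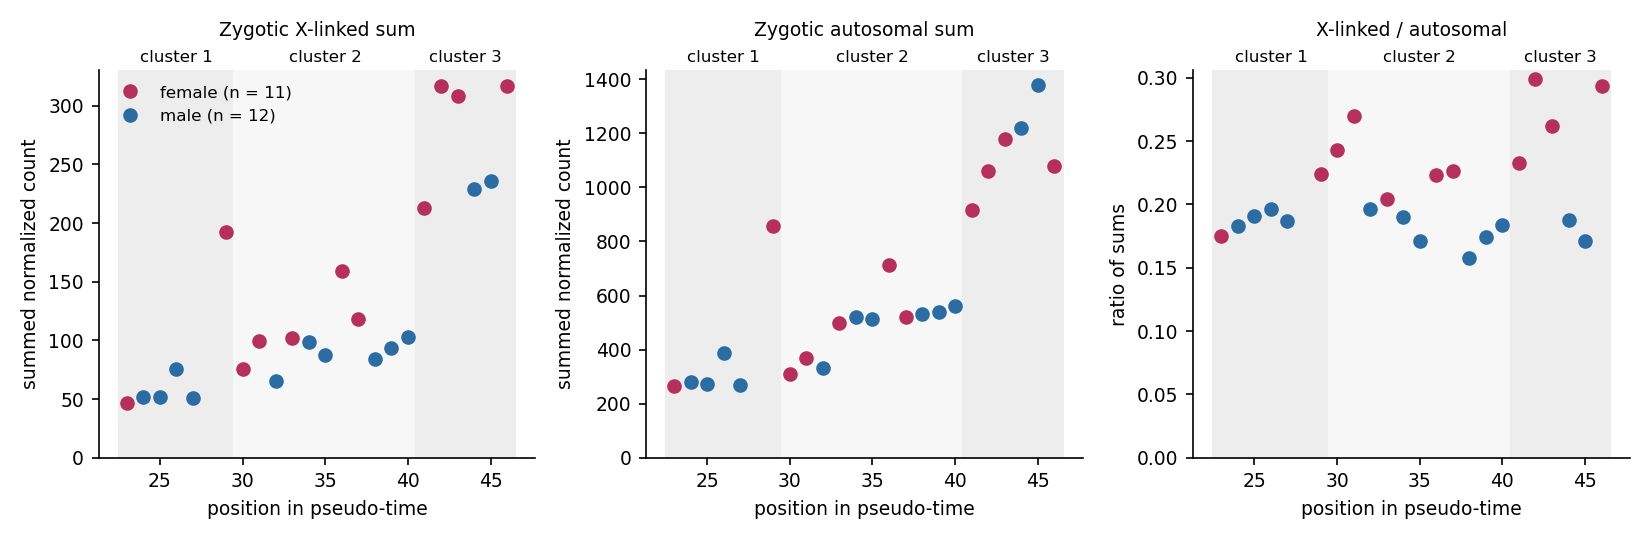
Points give for each embryo the summed normalized count of 190 zygotic X-linked genes, that of 1098 zygotic autosomal genes and the ratio of both, against position in pseudo-time, with females in red and males in blue. In clusters 2 and 3 the lowest female ratio is 0.204 and the highest male ratio 0.196, while both sums overlap between the sexes in cluster 2.

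The genes that added most to the difference in the X-linked sum were picked out after their values were seen. In cluster 2 the mean of the females exceeded that of the males by 22, of which sc gave 3.66, sisA 1.91, CG14427 1.75, l(1)sc 1.16 and CG13000 1.01, so these 5 made up the smaller part of it. In cluster 3 the excess was 56, of which sc gave 24, ac 8.10, CG14427 7.12, l(1)sc 6.59 and sisA 6.29, which together made up the larger part. Leaving out the 5 most abundant genes of each sum gave a log2 difference of the ratio of 0.27 (exact permutation p = 0.00437). Gene by gene, 7 of the 69 tested zygotic X-linked genes had all cluster 3 females above both males (10.1%) and 3 had both males above all females (4.35%), beside 4.24% and 5.41% of all 6752 genes, so single genes seldom separated the sexes. In cluster 2 these were 0 and 1 of the 69, beside 0.118% and 0.207% of all genes.

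Outside these lists, the genes of lowest unadjusted p were named although none passed. Towards females these included cpo, an RNA-binding protein gene, and apolpp, the lipoprotein precursor of the hemolymph. In cluster 1 cpo was at 0.751 and 6.76 in females and at 0.593, 1.19, 0.882 and 0.379 in males, and apolpp at 0.751 and 7.47 in females and at 0.889, 0.474, 1.47 and 0.379 in males. The high values belong to the same embryo that stood apart. The differences were 1.76 for cpo and 1.95 for apolpp with all embryos, and 0.63 and 0.73 without the pair. In contrast lncRNA:CR43144 gave 0.99 (SE 0.28) with all embryos and 1.12 without the pair. For this RNA every female lay above every male in cluster 2, as for 0.118% of all tested genes, and in cluster 3, as for 4.24%. Its cluster 2 females had 1.60, 2.49, 1.91, 1.62 and 1.86 and its males 0.484 to 1.11, values of 10 UMIs or fewer in the females.

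Towards males, Fatp3, annotated as a fatty acid transport protein, had the lowest p after dpn. Its females had 9.77 and 13.9 in cluster 1, 11.0, 18, 9.85, 11.2 and 8.92 in cluster 2 and 8.00, 11.0, 13.5 and 16.6 in cluster 3. Its males had 12.4, 17.8, 22 and 17.6 in cluster 1, 16.1 to 18.4 in cluster 2 and 19.4 and 12.8 in cluster 3. The sexes overlapped in each cluster, and the difference was -0.49 (SE 0.12, edgeR adjusted p = 0.476). The X-linked genes Mrgn1 and CG14053 gave -0.28 and -0.84, and CG10628 on 2L gave -0.41, each with an edgeR adjusted p of 0.894. For CG14053 both cluster 3 males, at 3.27 and 2.93, lay above the females at 2.00, 1.29, 0.998 and 0.613. Of all tested genes 5.41% had both males above every female there.

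Within clusters, 0 genes were called by edgeR. At an unadjusted p below 0.05 there were 330 genes in cluster 1 (4.89%), where sex and cage cannot be told apart, 152 in cluster 2 (2.25%) and 221 in cluster 3 (3.27%). A test of whether the sex difference varied among the 3 clusters also called 0 of 6752 genes with edgeR and with DESeq2, and 150 genes had an unadjusted p below 0.05 in edgeR (2.22%) and 131 in DESeq2.

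To place these differences in time, the 23 embryos were set beside 12 female and 14 male embryos of clusters 5 to 7, around and after the start of the major activation. In those, edgeR called 28 genes higher in females (0.384% of 7293) and 12 higher in males (0.165%). The difference between the later and the earlier sex difference, with the clusters of each period weighted equally, was called for 2 genes further towards females (0.0274%) and 2 further towards males (0.0274%). Sxl moved from 0.52 to 3.80 on the log2 scale (difference 3.28, SE 0.19, edgeR adjusted p = 8.45e-21). Corp, also X-linked, moved from 0.12 to 1.18 (difference 1.06, adjusted p = 0.00764). The histone locus body gene mute moved from 0.04 to -1.03 (difference -1.07, adjusted p = 0.00175) and X-linked CG8188 from 0.06 to -0.61 (difference -0.67, adjusted p = 0.00326). Of these 4 calls, that of Sxl held in all 23 fits that left out an embryo, that of mute in 21, that of Corp in 14 and that of CG8188 in 4. Without the pair that stood apart 2 genes were called.

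For other genes of the pathway a change between the periods was not called. The later difference of sisA was 1.07 (edgeR adjusted p = 5.04e-07), beside 0.96 earlier in the same fit. That of msl-2 was -1.27 (adjusted p = 9.02e-09), beside -0.44 earlier, and the change between the periods had an adjusted p of 0.831. For dpn the later difference was -0.07, which was not called, beside -0.71 earlier, and the change had an adjusted p of 0.783. In cluster 5 the totals of 0 of 3 females and of 5 of 6 males equalled a barcode total of the first of the 2 libraries, so sex and library cannot be told apart fully in the later embryos. In clusters 1 to 3 such totals were found for 5 of 11 females and 3 of 12 males. Embryos were not assigned to libraries from these totals, and the part of the library in these results was not tested.

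**Figure D5:**
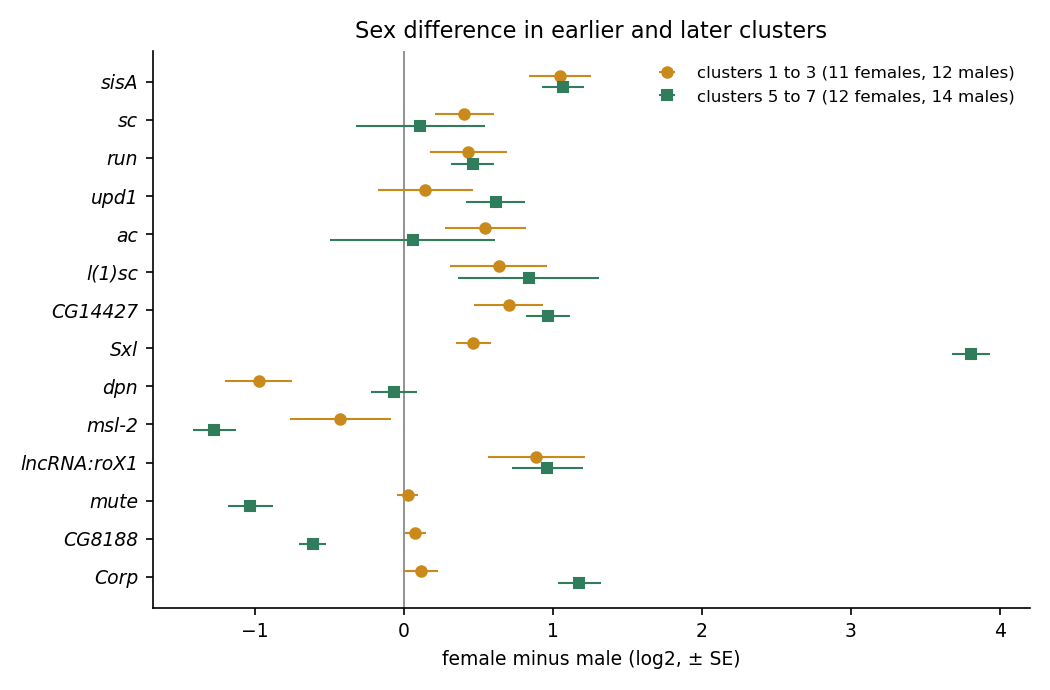
Female minus male log2 differences with standard errors are shown for 14 genes in clusters 1 to 3 (circles, fit with cluster and sex) and in clusters 5 to 7 (squares, mean of the 3 clusters). sisA lies at 1.05 and 1.07, Sxl at 0.47 and 3.80, dpn at -0.98 and -0.07.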

How the data were processed

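Single whole embryos were profiled with a modified CEL-Seq2 protocol as 2 libraries. Reads were mapped and UMIs counted with STAR 2.7.8a in STARsolo mode per the submitters' processing notes. The authors deposited raw UMI counts per barcode, of which the totals of the first library were used, and a table of 7629 genes and 84 embryos whose values are a signal: each UMI count divided by the embryo's total, multiplied by the smallest total (274491 UMIs) and with 0.1 added by the authors. After 0.1 was subtracted, 100% of values were whole multiples of 1 step per embryo to within 0.0001, and the UMI counts were computed back. Cluster, order and sex came from the study's supplementary lists, and cage and collection interval from embryo names. Chromosome and position came from an Ensembl annotation of assembly release 6, in which 7513 genes were found by symbol, 103 by synonym and 13 not.

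Genes with at least 3 UMIs in at least 5 of the 23 embryos were tested with edgeR 4.0.16 (quasi-likelihood, robust, TMM factors between 0.868 and 1.05) on cluster and sex, with calls at p below 0.01 after Benjamini-Hochberg adjustment over all tested genes. Sums were compared by exact two-sided permutation of sex within clusters (103950 regroupings), with a threshold of 0.05 on the adjusted p. The report names called genes, every tested member of listed pathways for which a value matters, and, with fewer than 5 calls in a direction, the 5 genes of lowest p. fd19B, CG14427, gt and the members named for their share of a sum were added after their values were seen. The clusters, gene lists and tests were chosen with earlier results of these data known. Alternatives were DESeq2 1.42.0, limma 3.58.1 on log2 of the deposited value or of the normalized count plus 1, other scalings, filters and thresholds, cage or position as a covariate, each cage alone, another maternal limit, other summaries, and embryos left out. The procedure was tested on simulated data. R 4.3.3, Python 3.11.15, numpy 2.4.6, pandas 2.3.3 and matplotlib 3.10.9 were used. The unfertilized eggs, qPCR data, promoter sequences and the library of each embryo were not analysed here. The depth limits the precision of scarce genes, and UMI counts carry counting error beside the spread between embryos.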

Additional observations from a re-analysis of the deposited data

Results flagged for a closer look

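In 13 of 128 groups of 4 to 10 embryos of a sex and cluster, the highest or lowest embryo lay far from the rest by Dixon's criterion. Chance alone does this for about 1 group in 20 when values are continuous and normally distributed. Scarce genes with many values of 0 are not, and the groups share embryos, so the count cannot be read against that rate. Female 1 of cluster 3, the shallowest embryo, was the low one of its group for CG10628 (5), run (4.00), gt (2.00) and the zygotic X-linked sum (213), and the high one for lncRNA:CR43144 (2.00). Male 3 of cluster 1 was the high one for run (0.294), tsg (0.294), the zygotic X-linked sum (75.8) and the zygotic autosomal sum (386). Male 1 of the same cluster was the high one for l(1)sc (0.593). In cluster 2, male 1 was the low one for the zygotic autosomal sum (332), male 4 the high one for cpo (1.39) and female 2 the high one for Fatp3 (18). The values for run, tsg and l(1)sc in cluster 1 rest on 1 or 2 UMIs. The part of depth in these values was not tested.

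The sex difference in clusters 5 to 7 differed from that in clusters 1 to 3 by edgeR's test of the difference itself for Sxl (3.28 on the log2 scale), Corp (1.06), mute (-1.07) and CG8188 (-0.67).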

How the results depend on the processing

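The count of 0 called genes in each direction held in all 16 alternatives and in all 23 fits that left out an embryo, where the smallest adjusted p was 0.0196 and the number of genes with an unadjusted p below 0.05 ranged from 164 to 342 towards females and from 63 to 138 towards males. The test of variation among clusters gave 0 in 5 alternatives and in 23 such fits. The count of 4 genes with unlike earlier and later differences became 7 at an adjusted p below 0.05, 7 with DESeq2, 2 without the pair of embryos that stood apart, and 1 to 4 with each embryo left out. The zygotic X-linked sum passed with position in pseudo-time as a covariate (0.60 on the log2 scale, exact permutation p adjusted over 3 sums 0.00115). With each embryo left out it ranged from 0.20 to 0.53. Its adjusted p fell below 0.05, the threshold used for sums, without female 1 of cluster 1 (0.53) or female 1 of cluster 2 (0.47), and was 0.0171 at the lowest, so it did not reach 0.01. The zygotic autosomal sum changed sign with cage as a covariate (-0.0028), without cluster 1 (-0.16), without the pair of embryos (-0.25) and without cluster 1 and female 4 of cluster 2 (-0.27), and ranged from -0.16 to 0.12 with each embryo left out, below 0 without female 2 of cluster 1, male 1 of cluster 2 or female 4 of cluster 2. The maternal X-linked sum was -0.0024 without the pair. The cause of these changes was not tested. The ratio of the sums, a measure chosen after seeing the data, kept its direction and its side of the threshold in all 9 alternatives. It also did so in all 23 fits with an embryo left out (0.32 to 0.42). Of 965 alternative fits of 25 named genes, 959 kept direction and 0 passed 0.01, apart from upd1 with limma (-0.27 and -0.092) or with an embryo left out (-0.094 to 0.25), ac with limma (-0.12) and gt with position as a covariate (0.12). The call of mute was lost without female 1 of cluster 1 or male 2 of cluster 3 (lowest and highest difference with an embryo left out -1.13 and -0.96). No paired analysis was possible because each embryo is a separate animal and the replicate numbers only name embryos of a sex and cluster. The shallowest embryos and the 2 females of cluster 1 and 2 males of cluster 3 limit what single genes can show.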
